A study of Mus musculus with 2 samples.

Results

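The histone genes of mouse were described in eosinophils of the naive colon. Members were chosen by name: every gene of the deposited table whose symbol begins with Hist and a digit, H2af, H3f3, H1f and a digit, H1fx or H1foo, with the transcript of the most reads kept for each gene. This gave 81 of 23455 genes, of which 68 are replication-dependent genes (the Hist symbols) and 13 are variant genes. The study collected 2 samples, which form 1 group: eosinophils of naive wild-type C57BL6 mice, with no treatment named. Per the labels' protocols, colons were digested enzymatically, eosinophils were isolated on a flow sorter, Trizol was used for RNA, and each sample was made into 3 CEL-Seq libraries that differ in their primer pools and are technical replicates. The sources used here name neither the age and sex of the mice nor the sort gate, and do not say whether animals were pooled. The authors' table gives 1 value per transcript for both samples together, so no spread between samples, no n and no test can be given for any value.

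Chromatin is built from the core histones H2A, H2B, H3 and H4, and the linker histone H1 binds the DNA between nucleosomes. Replication-dependent histone genes lie in clusters and are transcribed mainly in S phase, and their mRNAs end after a conserved stem-loop that is bound by the stem-loop binding protein SLBP instead of carrying a poly(A) tail. Variant histone genes mostly lie outside these clusters, are transcribed through the cell cycle and in cells that no longer divide, and make polyadenylated mRNAs. Some replication-dependent genes are also known to make polyadenylated mRNAs from a site downstream of the stem-loop in differentiated cells. CEL-Seq primes on the poly(A) tail and reads the 3′ end of the mRNA. Mature eosinophils are cells that have left the cell cycle.

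The sequences that separate these ends are shown for the members with the most reads, from GENCODE M21 transcripts on GRCm38 (the mm10 assembly), 5′ to 3′ along the mRNA, all in the 3′ UTR. The first set holds the stem-loop in capitals, found on the sense strand as a 16-letter pattern of GG, any pair of bases, CTT, any base, T, any base, AG, any pair and CC. It is shown for the 3 linker genes with a stem-loop and reads, for the variant gene that has one, and for a core H3 gene whose model ends at it.
Hist1h1c, chr13:23739507-23739532, plus strand: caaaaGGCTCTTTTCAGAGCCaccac
Hist1h1d, chr13:23555782-23555807, plus strand: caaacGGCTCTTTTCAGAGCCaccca
Hist1h1e, chr13:23621777-23621802, minus strand: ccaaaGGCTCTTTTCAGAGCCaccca
H2afx, chr9:44335235-44335260, plus strand: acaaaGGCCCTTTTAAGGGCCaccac
Hist1h3g, chr13:23535884-23535909, plus strand: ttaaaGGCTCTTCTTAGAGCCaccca
Among the 16 members with reads and a stem-loop in the deposited model, 5 forms of the letters occurred, and 12 members had the form of the 3 linker genes above.

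The second set holds the poly(A) hexamer in capitals, AATAAA or ATTAAA within the last 50 bases of the model on the sense strand, and is shown for the 6 members with the highest levels among those that have one.
H3f3b, chr11:116021987-116022016, minus strand: ataggccttacaAATAAActagtaagtttg
H1f0, chr15:79030471-79030500, plus strand: ttaaaactttaaAATAAAactggaaaggaa
Hist1h1c, chr13:23740330-23740359, plus strand: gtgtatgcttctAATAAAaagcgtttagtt
H2afj, chr6:136810039-136810068, plus strand: gcaaaaaggacaAATAAAgaatatattaca
Hist1h2bc, chr13:23692450-23692479, plus strand: tgatgtatatatAATAAAtgtcatgtaaag
H2afv, chr11:6427240-6427269, minus strand: caaatgcacagaAATAAAgaaactagcact
Hist1h1c stands in both sets: its stem-loop begins 856 bases before the end of the deposited model and its hexamer 26 bases before it. Over 20242 protein-coding genes with a matched transcript, the stem-loop letters were found in 120 (0.593%) and a hexamer in the last 50 bases of 14411 (71.2%). A match describes letters and is not evidence of a used site.

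Levels are given as the authors' RPKM, which is per kilobase of transcript and per 1000000 reads, and as reads, the deposited mean read total times the 6 libraries. Intervals in square brackets are exact 95% Poisson intervals of the reads on the RPKM scale, and they cover counting error only, since the labels name no molecular identifiers. All genes together held 7692387 reads. The depths of the 6 libraries, recovered from transcripts with a single read, ran from 1892486 to 4752357 reads. A gene listed at 0 had no counted read, and its expected count may still have been up to 3 reads, or 0.390 reads per 1000000 reads on genes (RPM). In a bulk sample, fewer cells of a type and less RNA per cell cannot be told apart.

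Variant genes held most of the histone reads. Because CEL-Seq primes on the poly(A) tail, capture and mRNA level cannot be told apart in a comparison of the classes. The same limit holds for the ratios by family below. Histone genes had 15569 reads, 0.202% of the reads on genes; 13452 came from the 13 variant genes and 2117 from the 68 replication-dependent genes. The variant share of histone reads was 86.4% (Wilson 95% interval 85.9 to 86.9, which covers counting error only). It was 79.7% by RPKM and 72.4% of the reads without H3f3b. A minimum RPKM of 1 was reached by 7 of 13 variant genes (53.8%) and by 7 of 68 replication-dependent genes (10.3%), against 31.0% of all 23455 genes. A value above 0 was found for 9 of 13 variant genes (69.2%) and for 27 of 68 replication-dependent genes (39.7%), against 69.1% of all genes. The median RPKM was 1.28 for the variant genes, 0 for the replication-dependent genes and 0.186 for all genes. The reads were concentrated in few members: H3f3b held 50.7% of the histone reads, and H3f3b, H1f0 and Hist1h1c together held 89.7%. Hist1h1c alone held 81.6% of the replication-dependent reads, and the other 67 genes of that class shared 390 reads. In all, 45 members were listed at 0, of which 41 were replication-dependent, and the 4 variant genes at 0 were H1fx, H1foo, H2afb1 and H2afy3.

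**Figure D1:**
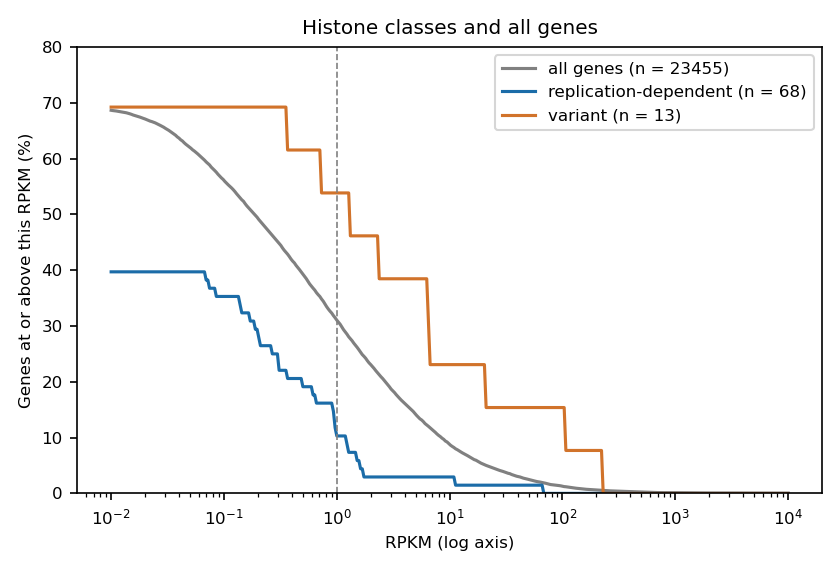
Percent of genes at or above each RPKM (log x axis) for the 13 variant genes, the 68 replication-dependent genes and all 23455 genes; the dashed line marks an RPKM of 1. At that line the variant genes stood at 53.8%, all genes at 31.0% and the replication-dependent genes at 10.3%.

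Among the members, H3 histones were represented almost wholly by 1 gene. Cenpa, an H3 variant outside the name rule, is not counted here and is given further below. H3f3a and H3f3b are separate genes that encode the same replacement variant of H3, which is placed into chromatin outside replication. H3f3b (chr11:116021961-116024504, minus strand) was deposited at an RPKM of 224 [220 to 230] with 7896 reads, the highest histone level and rank 126 of 23455 genes. H3f3a (chr1:180802568-180813603, minus strand) was at an RPKM of 2.32 [1.65 to 3.17] with 39 reads, 96.8-fold lower than H3f3b on the RPKM scale and 202-fold lower in reads, which take no account of length. The intervals of the pair lie far apart. Their coding sequences are both 411 bases long and matched at 76.9% of positions, with 95 differences. Neither GENCODE transcript shared a 35-base word in its last 500 bases with another gene. The model of H3f3a ends short of its GENCODE transcript, which runs on for 1736 bases beyond the deposited end. Whether reads lie there was not tested. All 500 bases searched for H3f3a lie beyond the deposited end, so words shared within its counted model were not tested. The 12 replication-dependent H3 genes had 29 reads together, 6 of them had any read, and none reached an RPKM of 1. Over all genes, 69.1% had any read and 31.0% reached an RPKM of 1. The summed RPKM of H3f3a and H3f3b was 227 and that of the replication-dependent H3 genes 2.19, a ratio of 103. The ratio of their reads was 274.

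Linker histones were the other abundant family. H1f0 encodes a linker variant known for its accumulation in differentiated, non-dividing cells. H1f0 (chr15:79028212-79030500, plus strand) was at an RPKM of 105 [102 to 108] with 4335 reads, rank 282 of all genes. Hist1h1c, currently named H1f2 (chr13:23738807-23740367, plus strand), was the highest replication-dependent gene, at an RPKM of 67.3 [64.1 to 70.5] with 1727 reads and rank 448. H1f0 was thus 1.56-fold above Hist1h1c on the RPKM scale, with intervals that do not overlap, and 2.51-fold above it in reads. The other replication-dependent linker genes with reads were far lower. Hist1h1e, currently H1f4, was at an RPKM of 1.61 [1.14 to 2.21] with 38 reads, and Hist1h1d, currently H1f3, at 1.23 [0.948 to 1.57] with 64 reads. Hist1h1e overlaps Hist1h2be by 467 bases on the same strand and shares 99.1% of the 35-base words at its end with it, so reads of these 2 genes cannot be assigned with certainty. The remaining 3 replication-dependent linker genes were listed at 0, as were the variant linker genes H1fx, which is widely expressed in other tissues, and H1foo, which is known from oocytes. Linker genes held 86.4% of the replication-dependent reads (1829 of 2117).

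Among the H2A variants, H2afj was the highest. Its product is an H2A that differs from canonical H2A mainly at the tail. H2afj (chr6:136808248-136810074, plus strand) was at an RPKM of 20.8 [19.3 to 22.4] with 696 reads. H2afy encodes macroH2A1, a large H2A with an added macrodomain that is linked to silenced chromatin, and was at an RPKM of 6.71 [5.90 to 7.60] with 248 reads. The related H2afy2 was at an RPKM of 0.356 [0.214 to 0.556] with 19 reads; its span overlaps Mir5108 by 85 bases on the opposite strand. H2afy had 4 RefSeq rows of the same span: NM_001159513 and NM_012015 had 248 reads each, and NM_001159514 and NM_001159515 had 140 each. How reads common to several rows were counted is not stated, so these totals cannot be added.

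H2afv and H2afz encode the forms of H2A.Z, a variant placed near the start of active genes. H2afv was at an RPKM of 6.48 [5.55 to 7.52] with 174 reads and H2afz at 1.28 [0.802 to 1.94] with 22 reads, a 5.06-fold difference on the RPKM scale with intervals that do not overlap, and a 7.91-fold difference in reads. Their coding sequences, 387 bases each, matched at 79.1% of positions with 81 differences, and neither shared 35-base words at its end with another gene. H2afx, whose product is phosphorylated around DNA breaks, is a variant gene by name that carries both a stem-loop and a hexamer in its model. It was at an RPKM of 0.731 [0.464 to 1.10] with 23 reads. The last H2A variants, H2afb1 and H2afy3, were listed at 0. Variant H2A genes summed to an RPKM of 36.3, and the 18 replication-dependent H2A genes to 5.05, a ratio of 7.20, and the ratio of their reads was 17.6. For the linker family the ratio was 1.5 by RPKM and 2.37 by reads, on both scales the lowest of the 3 families that have members in both classes.

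**Figure D2:**
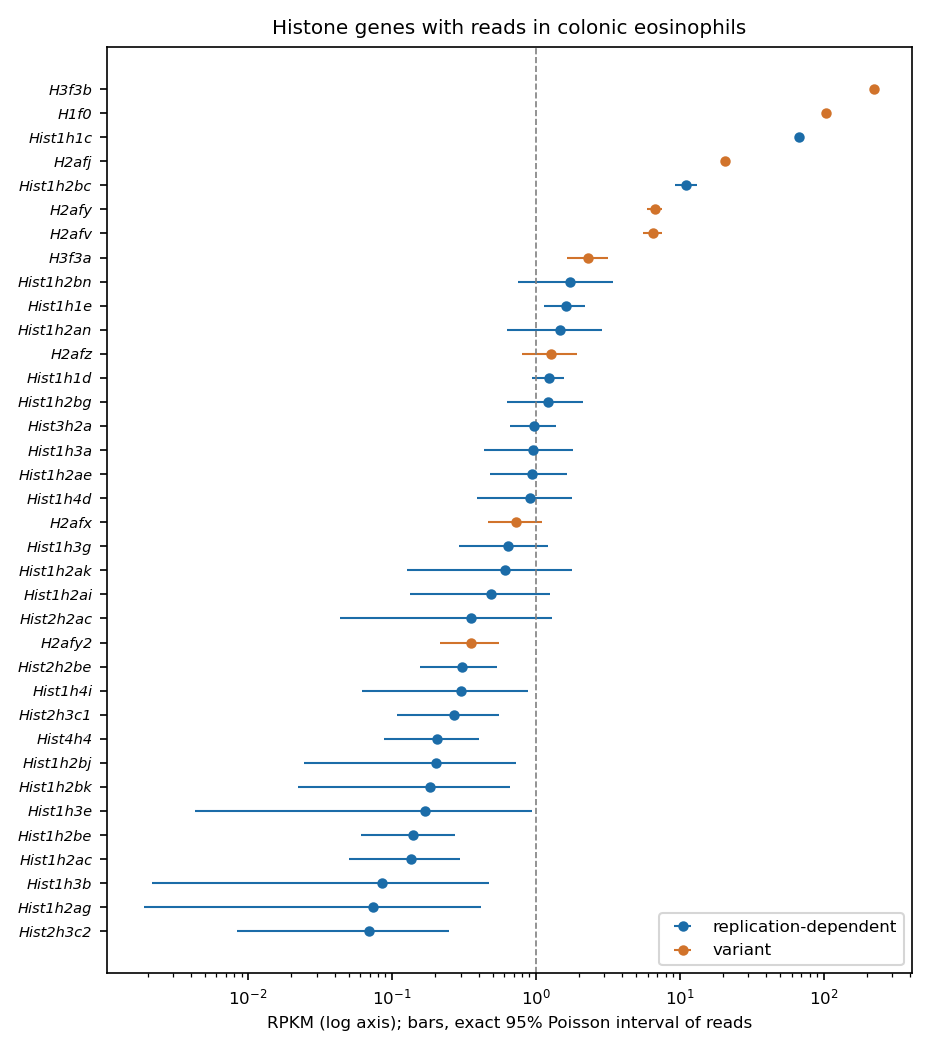
Deposited RPKM (log axis) of the 36 histone genes with reads, coloured by class, with exact 95% Poisson intervals of the reads. The variant gene H3f3b is at the top at 224, Hist1h1c is the only replication-dependent gene above 20, and most genes of that class have intervals that reach below 1.

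Most replication-dependent core histone genes had few reads or none. The highest by RPKM and by reads was Hist1h2bc, an H2B gene currently named H2bc4 (chr13:23684199-23692480, plus strand), at an RPKM of 11.1 [9.31 to 13.2] with 129 reads. This was 6.03-fold below Hist1h1c on the RPKM scale and 13.4-fold below it in reads. The GENCODE transcript matched to Hist1h2bc has 2 exons. Trimmed to the deposited span, this transcript ends at the hexamer printed above and holds no match to the stem-loop pattern. The other core genes at an RPKM of 1 or more rested on few reads. Hist1h2bn, an H2B gene, was at an RPKM of 1.73 [0.749 to 3.42] with 8 reads, Hist1h2an, an H2A gene, at 1.47 [0.633 to 2.89] with 8 reads, and Hist1h2bg, an H2B gene, at 1.22 [0.629 to 2.13] with 12 reads. All 3 intervals reach below 1. The 3 genes share 87.9%, 87.7% and 54.9% of the 35-base words at their ends with another gene, so their totals depend on how reads with several alignments were treated, which the sources used here do not state. Just below the minimum, named after their values were seen, were Hist3h2a at an RPKM of 0.977 with 31 reads, more reads than the variant genes H2afx, H2afz and H2afy2 had, Hist1h3a at 0.959, Hist1h2ae at 0.936 and Hist1h4d at 0.910.

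By family, the 19 replication-dependent H2B genes had 173 reads, of which Hist1h2bc held 129. The 18 H2A genes had 67 reads, the 12 H3 genes 29 and the 13 H4 genes 19. Of these families, 7 H2B (36.8%), 8 H2A (44.4%), 6 H3 (50%) and 3 H4 genes (23.1%) had any read, against 69.1% of all genes. Neither H3 nor H4, the pair that forms the centre of the nucleosome, had a replication-dependent gene at an RPKM of 1. That minimum was reached by 31.0% of all genes. The highest genes of these families, Hist1h3a at 0.959 [0.438 to 1.82] and Hist1h4d at 0.910 [0.393 to 1.79], had intervals that reach above 1. By position, the large cluster on chromosome 13 held 54 of the 68 genes, all 7 genes that reached an RPKM of 1, and 2055 of the 2117 reads. The cluster on chromosome 3 (10 genes) had 23 reads, that on chromosome 11 (3 genes) had 31, all from Hist3h2a, and the single gene on chromosome 6, Hist4h4, had 8. Among the 68 genes, 7 are placed by the table at 2 loci each, and all 7 were listed at 0. Over the whole table, 325 of 346 such genes (93.9%) were listed at 0, so a 0 there does not speak of the gene's level.

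The deposited models of replication-dependent genes differ in where they end, and most reads fell on models with a hexamer at the end. The share of those models with any read, 71.4%, was near the 69.1% of all genes above 0. The 7 genes placed at 2 loci, all listed at 0, are counted here, and none is among the models with a hexamer. A model that spans only the coding sequence was given for 31 of the 68 genes; 10 of these had reads, 39 in all. A hexamer stood in the last 50 bases of 14 models; 10 of these had reads, 2001 in all, or 274 of 390 when Hist1h1c is left aside. Models with an untranslated end but no hexamer numbered 16, with 7 that had reads, 77 in all, and for 7 genes the end was not covered by a GENCODE transcript and none had reads. Against this, 11 of 13 variant models ended at a hexamer and 8 of these had reads. The stem-loop lay within 24 replication-dependent models, of which 15 had reads, while 12 of the 44 models without it had reads. The 31 models of the coding sequence alone are all among these 44, also where the full GENCODE transcript holds a stem-loop, as for Hist1h4d. These counts thus describe where the models end and do not compare genes with and without a stem-loop. A read downstream of a model's end would not be in its total, and the length of the model and the level of the mRNA were not tested apart.

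**Figure D3:**
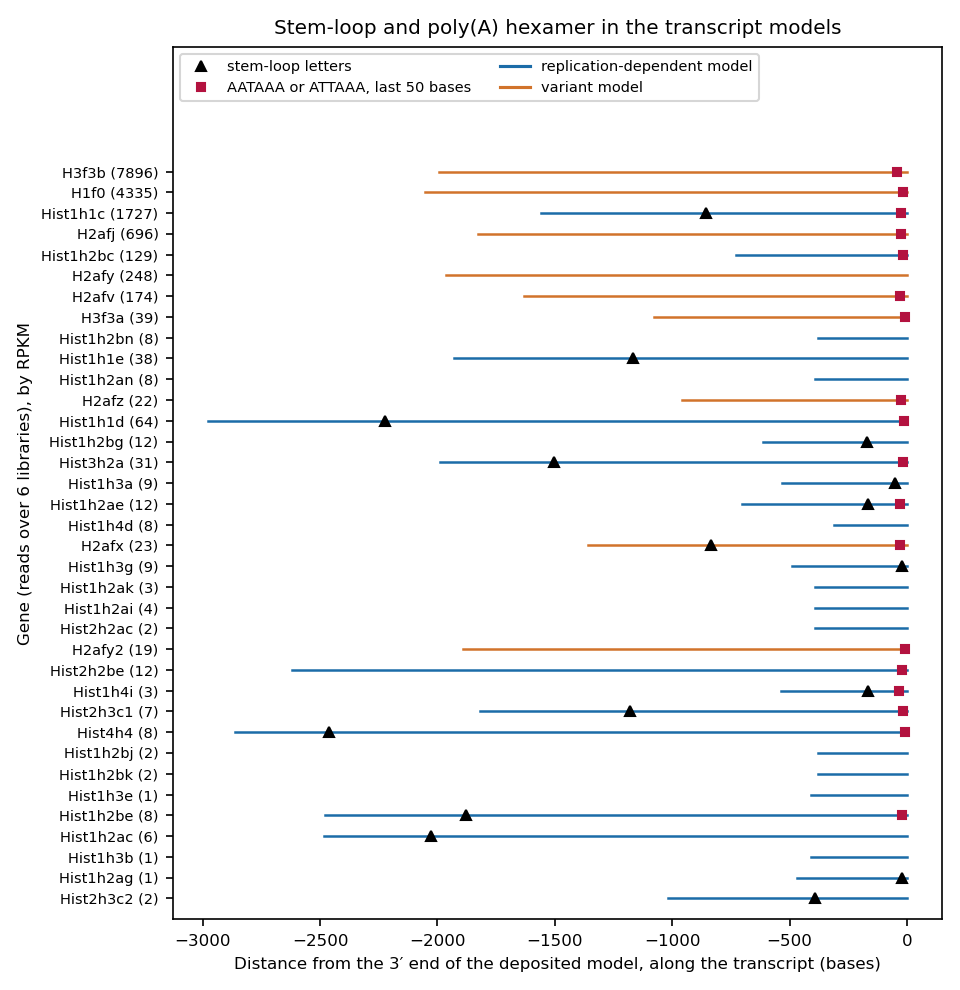
Each line is the deposited transcript model of a histone gene with reads, drawn along the transcript to its 3′ end at 0 (bases), with reads over 6 libraries in parentheses; triangles mark the stem-loop letters and squares a hexamer in the last 50 bases. Hist1h1c, Hist1h1d and Hist3h2a show the stem-loop 856, 2222 and 1503 bases before the end and a hexamer near it, while several core genes have neither.

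The ends were also set beside those of RefSeq on GRCm38.p6. After leaving out the 7 genes placed at 2 loci, 61 replication-dependent genes were compared. The deposited end lay 100 or more bases beyond the RefSeq end for 14 genes, by 100 to 2440 bases. Of these 14 genes, 11 had reads, 1910 in all, of which Hist1h1c alone held 1727. The deposited end lay within 100 bases for 45 genes, of which 15 had reads, 206 in all, and Hist1h2bc with 129 reads is among them. Over all genes, 69.1% had a value above 0. For 2 genes it lay 100 or more bases short, and they had 1 read. For Hist1h1c the deposited model runs 836 bases past the RefSeq end, for Hist1h1e 1149 and for Hist1h1d 2201, and in these genes the RefSeq end lies at the stem-loop printed above. The value of 67.3 for Hist1h1c is thus the level over a model that continues past the stem-loop to a hexamer. The table does not say where along a model the reads lie, so which end the counted mRNAs had was not tested.

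For members with 12 reads or fewer, the deposited RPKM, to which each library adds its reads divided by its own depth, allowed the reads to be placed in libraries by rising depth. The libraries could not be assigned to the 2 samples. Hist1h2bg had 6 reads in the first library, 3 in the fifth, 3 in the sixth and 0 in the other 3. Hist1h2an had 2 reads in the third library and 6 in the fourth, and Hist1h2bn had 3 in the first and 5 in the third. Each of these genes is thus at an RPKM above 1 through 2 or 3 libraries, with no read in the rest. Among genes below that level, Hist1h3g had all 9 reads in the deepest library, Hist1h4d had 7 of 8 there, and Hist4h4 had 7 of 8 in the third. Hist1h3a, with 9 reads, and Hist2h2be, with 12, were spread over 5 libraries. Of the 11 members with 7 to 12 reads, 10 could be resolved, and 4 of these (40.0%) had 75% or more of their reads in 1 library. Over the whole table, 342 of the 1756 rows in that range could be resolved, and among them the share was 32.7%. The unevenness of these members is thus near that of the resolved rows. Whether it is near that of all rows in the range was not tested.

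**Figure D4:**
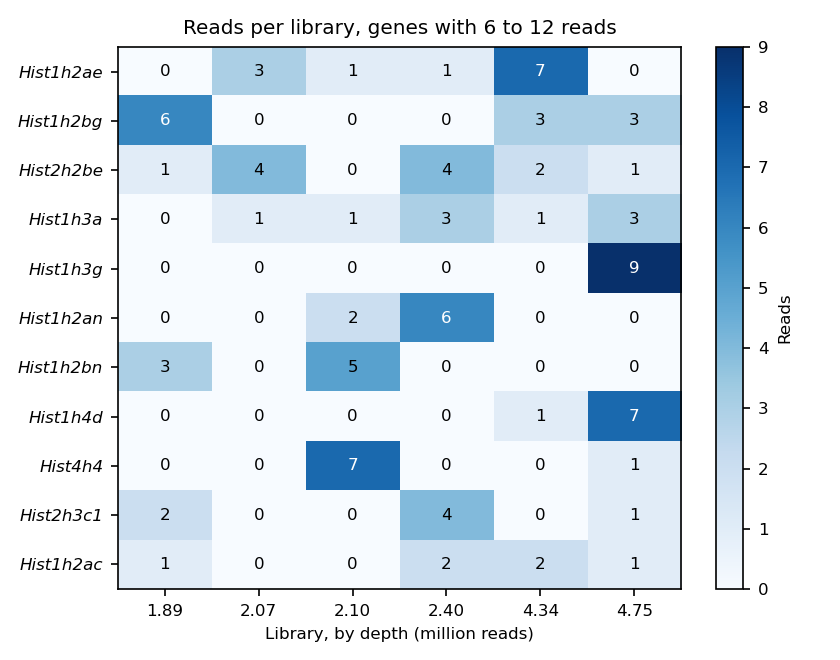
Reads in each of the 6 libraries, ordered by their depth in reads (x axis), for the replication-dependent genes with 6 to 12 reads; darker cells hold more reads. Most genes are empty in several libraries, and Hist1h3g has all 9 reads in the deepest one.

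Genes that process replication-dependent histone mRNA were partly detected. Of 17 found from a list of 18, 8 were at or above an RPKM of 1, against 31.0% of all genes, and the median RPKM was 0.949, against 0.186 for all genes. The highest were Srrt, which joins the cap-binding complex to RNA processing, at an RPKM of 25.2 [23.9 to 26.5], Lsm10, a subunit of the U7 particle, at 6.59 [5.37 to 8.0], Eri1, a nuclease that trims histone mRNA ends, at 5.80 [5.28 to 6.36], and Cpsf3, the endonuclease of 3′ end cleavage, at 5.06 [4.44 to 5.74]. Slbp, whose protein binds the stem-loop and is itself known to peak in S phase, was at an RPKM of 0.237 [0.0869 to 0.515] with 6 reads. Srrt and Cpsf3 also act on polyadenylated or other RNAs, so their levels are not particular to histone mRNA.

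Histone chaperones and deposition factors, which carry histones to DNA, were detected for 20 of the 26 found from a list of 27, against 31.0% of all genes, with a median RPKM of 2.4, against 0.186. Rbbp4, a histone-binding subunit of several chromatin complexes, was highest at an RPKM of 11.4 [10.6 to 12.2]. Npm1, a nucleolar chaperone, was at 10.7 [9.33 to 12.3], Hat1, which acetylates newly made H4, at 10.7 [9.49 to 12], and Ncl, the nucleolar protein nucleolin, at 6.44 [6.04 to 6.86]. None of the 26 was listed at 0.

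Genes of DNA replication and S phase were at or above an RPKM of 1 for 19 of 31, against 31.0% of all genes, with a median of 1.21, against 0.186. Cdk2, a cell cycle kinase, was highest at an RPKM of 62.6 [60.0 to 65.3], followed by Gins2, a subunit of the replicative helicase, at 27.5 [25.1 to 30.1], Rpa2, which binds single-stranded DNA, at 7.56 [6.63 to 8.57], and Top2a, the topoisomerase of dividing cells, at 6.84 [6.32 to 7.39]. The proliferation marker Mki67 was at an RPKM of 2.70 [2.46 to 2.95] and the polymerase clamp Pcna at 1.45 [0.983 to 2.05]. Uhrf1, which maintains DNA methylation at replication, was listed at 0. Of 6 histone variants outside the name rule, 5 were listed at 0; H2al2a, the current name of the member H2afb1, is not counted among them. The exception was Cenpa, the H3 variant of centromeres, at an RPKM of 18.3 [16.6 to 20.2] with 427 reads. On the RPKM scale this is above H3f3a and above every replication-dependent gene except Hist1h1c.

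The sorted cells carried eosinophil markers together with genes of other cell types. The counts below stand against 31.0% of all genes at an RPKM of 1 or more. Of 10 eosinophil genes, 9 reached an RPKM of 1: the lipoxygenase gene Alox15 was at 230, Adgre1, which encodes F4/80, at 109, Siglecf at 77.9, the eotaxin receptor Ccr3 at 155 and the granule protein gene Prg2 at 74.3, while Epx, the eosinophil peroxidase gene, was at 0.265. Of 13 colon epithelial genes, 12 were at or above 1, and their list summed to an RPKM of 291, led by Epcam at 89.3, Krt19 at 66.7, Muc2 at 30.8 and Lgals4 at 30.1. Of 8 fibroblast and endothelial genes, 5 did so, with a sum of 152, led by Col3a1 at 66.7, Col1a2 at 35.2, Dcn at 23.8 and Pecam1 at 16.3. Of 10 macrophage and neutrophil genes, 7 did so, with a sum of 172, led by Apoe at 54.3, Csf1r at 41.0, C1qb at 37.9 and S100a9 at 23.9, with Mertk, Mpo and Elane at 0. Of 11 lymphoid and plasma cell genes, 5 did so, with a sum of 51.8, led by Jchain at 44.1, Mzb1 at 1.83, Cd4 at 1.56 and Cd3e at 1.44. With 1 group and 1 value per gene, the part of these cells in the histone, S phase and Cenpa values was not tested.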

How the data were processed

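CEL-Seq libraries of 2 samples, 3 technical replicates each, were deposited as 1 table of 31295 RefSeq transcript rows with 2 value columns. Per the submitters' processing notes, STAR 2.4.2a and DESeq were used with mm10; the read counter and annotation release are not stated in those sources. The authors' deposited signal is a read total; 100% of these values times 6 are whole within 0.0001, as for a mean over 6 libraries, and were taken as reads over all libraries. The deposited RPKM values were made by the authors, per the file headers, and are 1 value for the group, so no SD is given. There were 0 columns of other samples.

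Symbols were brought to RefSeq names by accession for 30730 rows, by symbol for 402 and by synonym for 86, with 77 kept. The members and lists were chosen with earlier results of these data known. Text names all variant members, replication-dependent members at an RPKM of 1 or more, up to 6 members at 0, the 4 highest of each list, Slbp, Mki67, Top2a, Cenpa, Pcna, and Siglecf, Ccr3, Prg2 and Epx; other genes were named after their values were seen. Tent1, Srcap and H3f5, each listed once, were not matched.

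All 81 members matched a GENCODE M21 transcript, which was trimmed to the deposited coordinates for the motif search. The 35-base word search took the last 500 bases of the whole transcript, which for some members lie beyond the deposited end. Because RPKM divides by length while CEL-Seq reads the 3′ end, short models are raised and long ones lowered, and RPM was an alternative. Library depths come from transcripts with 1 read, 37 to 98 of them per library. Splits over libraries needed an RPKM match within 1e-05 with the next split at least 5e-05 away. On simulated data of 600 splits with the exact transcript length, 95.3% were resolved, 572 correct and 0 wrong. With a length wrong by 3 bases, 1.5% were resolved. In the deposited table, 1564 of 6352 rows with 1 to 12 reads were resolved. Python 3.11.15, numpy 2.4.6, scipy 1.17.1, pandas 2.3.3 and matplotlib 3.10.9 were used.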

Additional observations from a re-analysis of the deposited data

How the results depend on the processing

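Of 49 alternatives, 26 left a value close to that reported and 23 moved it. The 7 that set reads in place of RPKM in a fold or ratio between genes were chosen after seeing the data and stand beside those values; each gave a larger fold, and 6 of the 7 moved past counting error. The count of replication-dependent genes, 7 at an RPKM of 1, became 27 at any RPKM above 0, 13 at 0.5, 2 at 5, 15 at an RPM of 1, 18 with RPKM rescaled to a sum of 1000000, and 3 of 27 genes (11.1%) with under 50% shared words, against 7 of 68 (10.3%). All genes stood at 69.1%, 39.3%, 14.2%, 50.9% and 47.5% at the first 5 of these. The count of variant genes stayed between 5 and 9. The variant median of 1.28 became 5.39 rescaled and 2.99 in RPM. The variant share of 86.4% became 79.7% by RPKM and 72.4% without H3f3b. The linker share of the replication-dependent level, 74.8% by RPKM, was 86.4% in RPM. The mRNA processing count of 8 became 17 above 0, 4 at an RPKM of 5 and 15 in RPM, that of chaperones went from 20 to 7 at 5, and that of S phase genes from 19 to 30 above 0 and 5 at 5. The causes of these moves were not tested, beyond the minima themselves. Leaving out each sample was not run, since no column holds a single sample. No paired analysis was possible because the table holds 1 group and 1 value for both samples. Depth limits every member under about 12 reads, whose intervals span several-fold.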
